A study of Mus musculus with 12 samples.

Results

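Gut hormone and enteroendocrine genes were examined in the small intestine of fed and fasted mice. The search list held 10 genes, of which Cck, Gcg, Sct, Gip, Sst, Nts, Ghrl, Pyy and Tac1 encode peptide hormones and transmitters and Chga encodes a protein of the hormone granule. A gene was taken as measured where a probe that was not a control spot carried its name. By name, 2 of the 10 genes had a probe, Sct and Chga, with 1 probe each. In addition, Nts had 1 probe that the array lists under the older name 5033428E16Rik; it was matched through the gene number in the files and is marked as such wherever it is counted. The 3 probes stood among 20280 probes for 10408 numbered genes. No probe was matched by name or number for Cck, Gcg, Gip, Sst, Ghrl, Pyy and Tac1, which were not analysed here.

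Male mice of the inbred strain FVB, 6 weeks of age, were fed or had been without chow for 12, 24 or 72 h. Each group was represented by 3 arrays, and each array carried RNA from the pooled full-thickness small intestines of 2 mice labelled with Cy3. Every array also carried the same kind of Cy5-labelled reference, RNA pooled from 6 fed mice, and no array had the dyes exchanged. Fasted mice were in metabolic cages, an infrared lamp warmed them from 24 h onward, and all mice were killed at the same morning hour. The RNA of the whole gut wall was measured, so fewer cells of a type and less RNA per cell cannot be told apart. By the sample titles the pools were separate mice, although the labelling protocols of most arrays repeat the mouse numbers of another pool. The reference came from fed mice as did the fed pools. For fed replicate 3 the labels give the reference both as the mice of its own pool and as a pool of 6 fed mice. The latter was taken.

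Enteroendocrine cells are single hormone-secreting cells scattered through the intestinal epithelium. They sense the contents of the lumen and release peptides stored in dense-core granules, together with chromogranins, into blood or onto nearby nerves. Secretin, encoded by Sct, is released by S cells of the duodenum in response to acid and stimulates bicarbonate secretion by the pancreas. Neurotensin, encoded by Nts, is released by N cells of the distal small intestine after fat ingestion, slows gut motility and promotes fat absorption. Chromogranin A, encoded by Chga, takes part in the formation of dense-core granules and is the marker most often used for enteroendocrine cells as a class.

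Values are log2 ratios of the normalized Cy3 signal over the normalized Cy5 signal, so that 0 is the level of the fed reference and a change of 1 is a doubling. The Cy3 spots of Sct, Chga and Nts were well above background on all 12 arrays, at 5.57 to 37.7, 3.61 to 16.5 and 4.91 to 42.3 times the local background, and none was saturated or marked as an outlier. In Cy5, Chga was the dimmest of the signals relative to its own background, at 1.58 to 4.11 times, and was not well above background on 1 of the 12 arrays, 24 h replicate 1. The arrays formed 2 sets by raw signal. Array medians of Cy5 ranged from 133.5 to 142 for the fed pools and from 124 to 134 for the 72 h pools, but from 404.5 to 627 for the 12 h pools and from 393 to 436 for the 24 h pools. The files of the first pair of groups also had another layout than those of the second pair. Hence 72 h against fed and 24 h against 12 h compare arrays within 1 set, whereas in the contrasts across the sets fasting and array set cannot be told apart. One array, 12 h replicate 1, stood apart by its 1099 spots marked as outliers, against 43 to 248 on the others.

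Nts was the only one of the 3 genes with a call against fed, and it was lower at every time of fasting. The log2 ratios of the fed pools were 0.24, -0.24 and 0.46. The 12 h pools gave -1.06, -1.34 and -1.63, the 24 h pools -0.81, -0.74 and -0.37, and the 72 h pools -0.68, -0.88 and -0.77. All 9 fasted pools lay below all 3 fed pools, the 12 h pools lowest, and the 12 h pools overlapped with neither later group. The group means were 0.16 ± 0.36 (SD, n = 3), -1.34 ± 0.29, -0.64 ± 0.24 and -0.78 ± 0.10 in order of time. Relative to fed, Nts fell by 1.50 on the log2 scale at 12 h (SE 0.21, 95% interval -1.94 to -1.06, adjusted p = 0.002 by limma), a 2.83-fold lower level. The fall was 0.80 at 24 h (SE 0.21, limma adjusted p = 0.028) and 0.93 at 72 h (SE 0.21, 95% interval -1.37 to -0.49, limma adjusted p = 0.01), or 1.74-fold and 1.91-fold lower. With Nts counted, 1 of 3 member probes was called at each time, beside 10.9% of all probes after 12 h, 10.1% after 24 h and 10.6% after 72 h. Lower calls alone made up 6.02%, 6.26% and 5.8% in this order, and lower calls at all 3 times 1.13%. Pools that did not overlap with fed were found for 28.8%, 40% and 41.1% of the fully measured probes. The 12 h pools did not overlap with the 24 h pools for 21.9% of them, and with the 72 h pools for 30%. The F-test over the 4 groups gave an adjusted p of 0.0021 for Nts, with 24.9% of all probes called in that test.

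**Figure D1:**
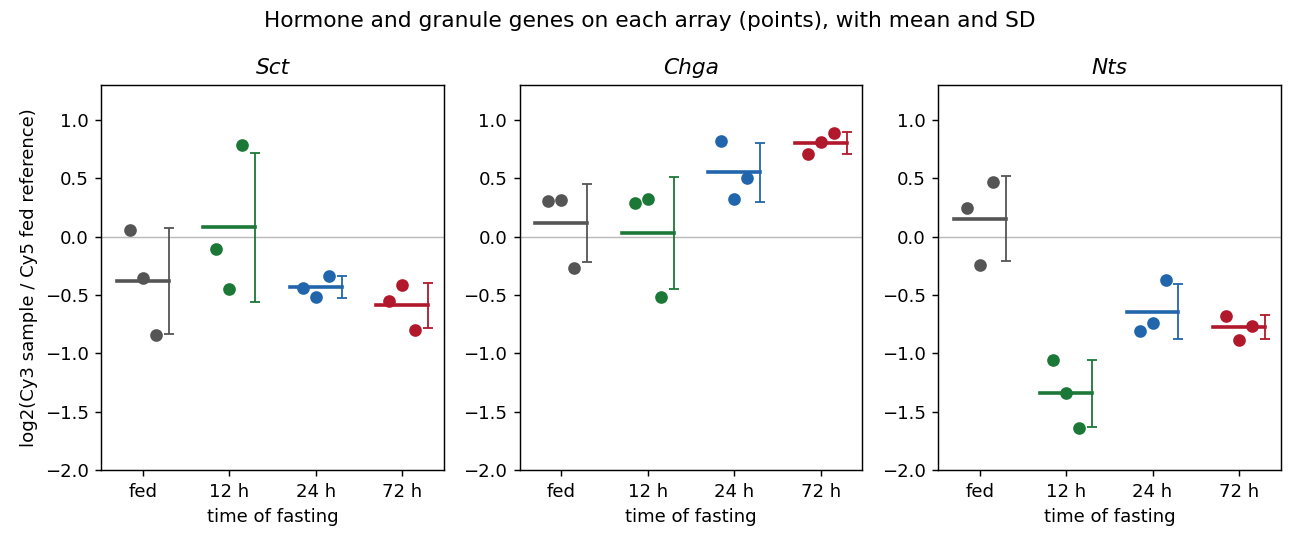
Log2 ratio of the Cy3 sample over the Cy5 fed reference (y axis) for Sct, Chga and Nts in fed gut and after 12, 24 and 72 h of fasting (x axis); points are single arrays, horizontal lines are means and bars are 1 SD. All 9 fasted points of Nts lie below the 3 fed points, the 72 h points of Chga lie above those of fed and 12 h, and the groups of Sct overlap.

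From 12 h to 24 h Nts was 0.70 higher on the log2 scale (SE 0.21, limma adjusted p = 0.081) and from 12 h to 72 h 0.57 higher (SE 0.21, adjusted p = 0.093), and neither difference passed. Without 12 h replicate 1, the array with the many outlier spots, both did (0.84 and 0.71, adjusted p = 0.036 and 0.04). The pools at 24 h and 72 h overlapped, with a difference of -0.13 and a 95% interval of -0.58 to 0.31. In order of level the groups ran fed, 24 h, 72 h and 12 h. Of the neighbours in this order, fed and 24 h differed in the test across all probes, and 24 h and 72 h, or 72 h and 12 h, did not.

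Both channels contributed to the ratio of Nts. In the Cy3 channel the normalized log2 signal was 9.56, 8.71 and 9.64 in the fed pools. The 12 h pools gave 8.53, 8.65 and 8.70, the 24 h pools 8.57, 8.79 and 9.04, and the 72 h pools 8.71, 8.40 and 8.57. Fed replicate 2 was therefore no higher in Cy3 than several fasted pools, while the other 2 fed pools were above all 9. Tested on Cy3 alone, the log2 changes of Nts in order of time were -0.68, -0.50 and -0.74, with limma adjusted p-values of 0.053, 0.11 and 0.052. None of them passed, while 15%, 24.6% and 8.65% of all probes did in that channel. In the Cy5 channel, which held fed RNA on every array, the signal of Nts was 9.31, 8.95 and 9.17 on the fed arrays and 9.59, 9.99 and 10.33 on the 12 h arrays, a difference of 0.82 (SE 0.17, limma adjusted p = 0.0071). At 72 h, on arrays of the same set as the fed ones, the Cy5 difference was 0.19 (adjusted p = 1). Calls in Cy5 were made for 21.9% of all probes on the 12 h arrays, 20.4% on the 24 h arrays and 0% on the 72 h arrays, where 0 of 20272 probes passed by limma and 870 had an unadjusted p under 0.05.

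When the fed and 12 h arrays were fitted alone, the fall of Nts was as large (-1.50, SE 0.24, limma adjusted p = 0.081) and lost its call, in a fit where 0 of all probes passed by limma and 4237 had an unadjusted p under 0.05. The fall at 72 h lost it without fed replicate 3 (-0.78, adjusted p = 0.057), and that at 24 h without fed replicate 1 or 3 or 24 h replicate 1 or 2 (-0.75, -0.64, -0.71 and -0.75, adjusted p = 0.084 to 0.11).

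**Figure D2:**
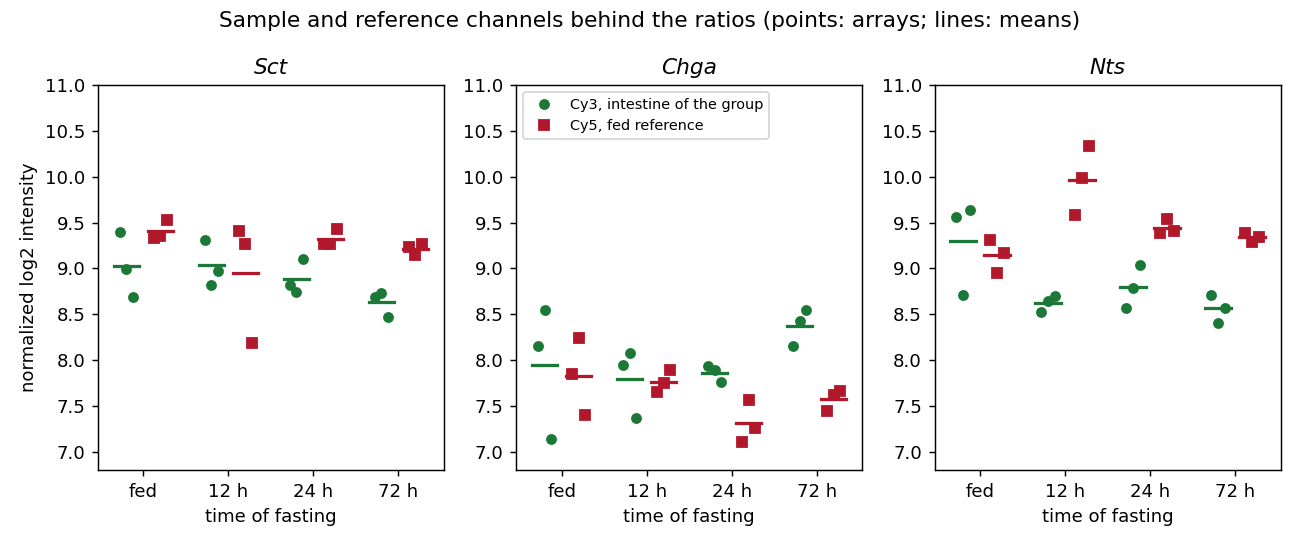
Normalized log2 intensity (y axis) of the Cy3 sample channel (circles) and the Cy5 fed reference channel (squares) for each gene and group (x axis); points are arrays and lines are group means. For Nts the 12 h squares rise above those of the other groups while the circles of all fasted groups lie below 2 of the 3 fed circles, and for Sct 1 square at 12 h lies at 8.19, below the others.

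Chga was higher after 72 h of fasting than after 12 h. Its log2 ratios were 0.30, 0.31 and -0.27 in fed gut and 0.29, 0.32 and -0.52 at 12 h. The 24 h pools gave 0.82, 0.32 and 0.51, and the 72 h pools 0.71, 0.81 and 0.89. The 24 h and 72 h pools all lay above the fed pools, although at 24 h by a margin of less than 0.01, and the 72 h pools were the most alike (40% and 41.1% of all fully measured probes separated likewise). The means were 0.12 ± 0.33 (SD, n = 3), 0.03 ± 0.48, 0.55 ± 0.25 and 0.80 ± 0.09 in order of time. Against 12 h, Chga at 72 h was 0.77 higher on the log2 scale (SE 0.23, 95% interval 0.27 to 1.27, limma adjusted p = 0.048), a 1.71-fold higher level. Thus 1 of the 2 probes matched by name was called in that contrast, beside 10.8% of all probes, and the contrast crosses the 2 array sets. The call was lost in 16 of 24 alternatives, all of which kept the direction (0.49 to 0.99). Among these were 9 of the 12 fits that left out 1 array, all but those without fed replicate 3 or 12 h replicate 1 or 2, and the difference was smallest without 12 h replicate 3 (0.49, adjusted p = 0.13).

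Against fed, Chga did not pass at any time. The log2 change was -0.08 at 12 h (SE 0.23, limma adjusted p = 0.84), 0.43 at 24 h (SE 0.23, adjusted p = 0.25) and 0.69 at 72 h (SE 0.23, 95% interval 0.19 to 1.19, adjusted p = 0.078). The 72 h value had an unadjusted p under 0.05, and it passed after adjustment with loess normalization (0.73, adjusted p = 0.039), with only the fed and 72 h arrays in the fit (adjusted p = 0.025), and without 12 h replicate 3 (adjusted p = 0.015). Set directly against the Cy5 reference instead of the fed arrays, the 72 h level was 0.80 above it (limma adjusted p = 0.0025). The fed pools were 0.12 above it (adjusted p = 0.75), and 5065 of all probes passed that test at 72 h. Sample and reference carried different dyes on every array, so dye and fasting cannot be told apart in it. The F-test over time gave an adjusted p of 0.057. Neighbouring times did not differ after adjustment, with 0.52 from 12 h to 24 h (adjusted p = 0.22) and 0.25 from 24 h to 72 h (adjusted p = 0.54). In Cy3 alone Chga was 0.43 higher at 72 h than in fed gut (limma adjusted p = 0.37), and the Cy5 difference was -0.26 (adjusted p = 1). At 24 h the 2 channels parted, with -0.09 in Cy3 and -0.52 in Cy5 (adjusted p = 0.85 and 0.078), so the positive ratio at 24 h came with a lower Cy5 signal and not with a higher Cy3 signal. That group also holds the array on which the Cy5 spot of Chga was not well above background.

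Sct showed no call in any of the 6 comparisons between groups. Its log2 ratios were 0.06, -0.36 and -0.84 in fed gut and -0.10, -0.45 and 0.79 at 12 h. The 24 h pools gave -0.44, -0.52 and -0.34, and the 72 h pools -0.55, -0.42 and -0.80. Every fasted group overlapped with the fed pools, and the 24 h and 72 h pools were closer together than those of fed and 12 h. The means were -0.38 ± 0.45 (SD, n = 3), 0.08 ± 0.64, -0.43 ± 0.09 and -0.59 ± 0.19 in order of time. Against fed the change was 0.46 at 12 h (SE 0.28, 95% interval -0.13 to 1.05, limma adjusted p = 0.29), -0.05 at 24 h (95% interval -0.65 to 0.54, adjusted p = 0.92) and -0.21 at 72 h (95% interval -0.80 to 0.39, adjusted p = 0.7). The 12 h value rested on 12 h replicate 3, where the Cy5 signal was 8.19 against 9.26 and 9.41 on the other 12 h arrays, and without that array it was 0.11. In Cy3 alone the change of Sct at 12 h was 0.01. Set directly against the Cy5 reference instead of the fed arrays, Sct at 72 h was at -0.59 (limma adjusted p = 0.041), a call in a test that 5065 of all probes passed. The fed pools were at -0.38 in the same test (adjusted p = 0.34), and dye and fasting cannot be told apart in it. The largest difference of Sct was between 12 h and 72 h, -0.67 (SE 0.28, limma adjusted p = 0.14), which passed without 12 h replicate 2 (-0.93, adjusted p = 0.048).

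By name, then, 0 of 2 member probes were called against fed by limma at any time. At an unadjusted p under 0.05 the counts in order of time were 0, 0 and 1, the last being Chga, beside 29.2%, 27% and 25.3% of all probes at that threshold. From 24 h against 12 h 0 of 2 were called by limma, with 2.92% of all probes called, and 1, Chga, had an unadjusted p under 0.05, beside 21% of all probes. From 72 h against 24 h 0 of 2 were called by limma, with 10.6% of all probes called, and 0 had an unadjusted p under 0.05, beside 26.5%. Directions differed among the 3 genes. At 72 h Nts was lower and called, Chga was higher and not called, and the interval of Sct included 0. Over the 12 arrays the log2 ratio of Sct had a Pearson r of -0.54 with that of Chga and of -0.43 with that of Nts, and r was -0.02 between Chga and Nts. These correlations describe the arrays only, which share a reference and fall into 4 groups.

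The probes whose log2 ratio followed that of Nts most closely, among 11099 others that carry a gene number and were measured on all 12 arrays, were those of Akirin1 (listed as 6330407G11Rik, Pearson r = 0.98), Eny2 (6720481I12, r = 0.97) and Cmc1 (2010110K16Rik, r = 0.97). Their log2 changes against fed were -1.04, -1.68 and -1.39 after 12 h and -0.64, -0.99 and -0.66 after 72 h. In Cy5 at 12 h the same probes were 0.65, 1.31 and 0.79 higher than on the fed arrays, as was Nts. In all, 99 of the 11099 probes had an r above 0.9 with Nts.

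The wider pathway was followed through 5 lists of genes. They covered other gut and islet peptides, granule proteins with prohormone processing and amine synthesis, transcription factors of the enteroendocrine lineage, receptors and degrading enzymes of gut hormones, and nutrient sensing. The lists had 27 probes for 25 genes on the array. After 12 h, 2 of the 27 probes were higher and 0 lower, after 24 h 3 were higher and 1 lower, and after 72 h 1 was higher and 1 lower. Over all probes the shares called higher were 4.9%, 3.79% and 4.8%, and those called lower 6.02%, 6.26% and 5.8%. The median log2 change over the 27 probes was 0.01, 0.20 and 0.15 in order of time, beside -0.02, 0.02 and 0.01 over all probes. None of the 3 probes for other peptides was called (Adm, adrenomedullin; Nppb, brain natriuretic peptide; Trh, thyrotropin-releasing hormone), with changes between -0.13 and 0.42. The 1 nutrient-sensing probe, Trpm5, a cation channel of taste and tuft cells, had changes of -0.28, 0.49 and 0.69 with limma adjusted p-values of 0.55, 0.29 and 0.15.

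**Figure D3:**
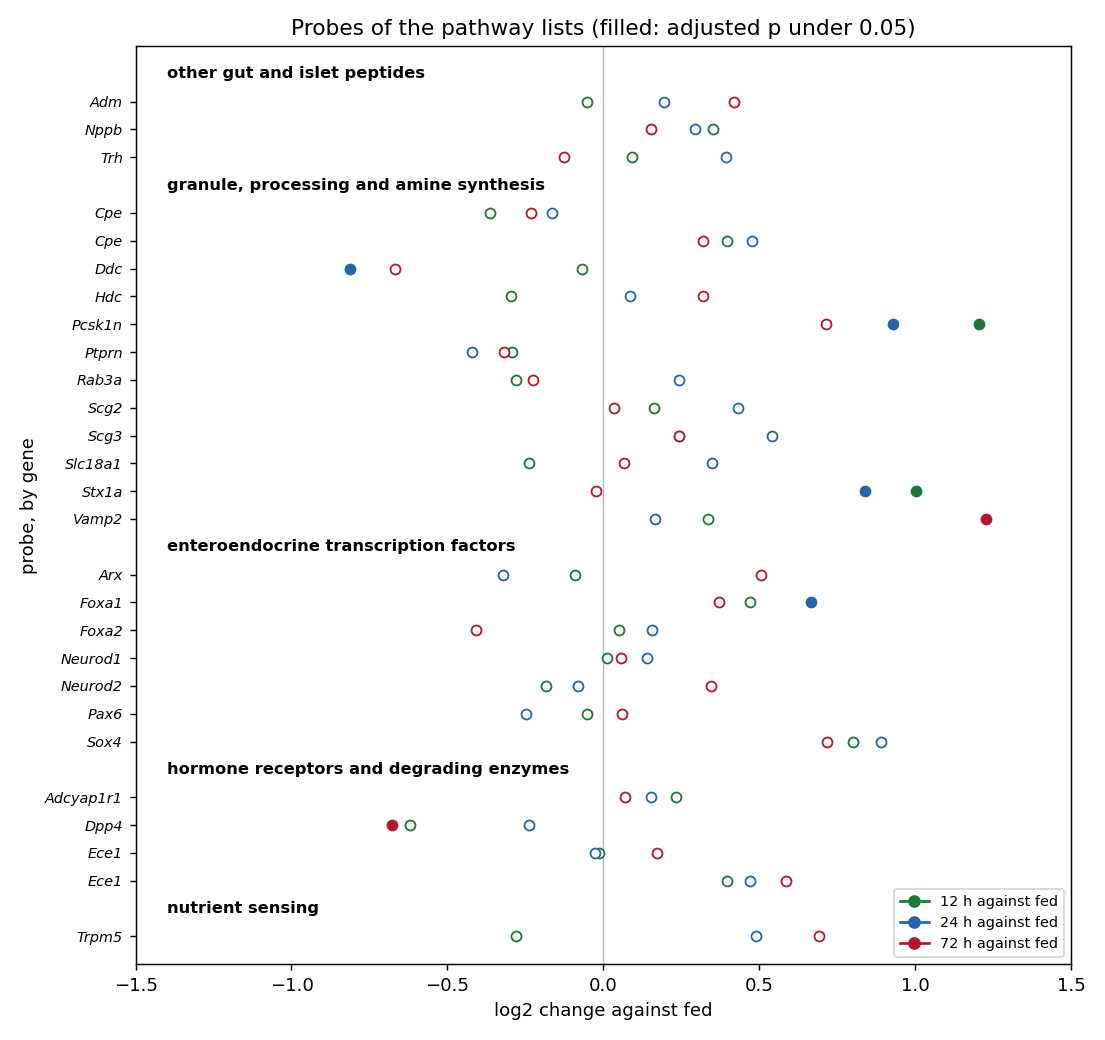
Log2 change against fed (x axis) for each of the 27 probes of the 5 pathway lists (y axis, by gene), at 12 h (green), 24 h (blue) and 72 h (red); filled circles passed an adjusted p under 0.05. Most circles are open, and the filled ones belong to Ddc, Pcsk1n, Stx1a, Vamp2, Foxa1 and Dpp4.

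The granule and processing list held most of the calls. Vamp2, a SNARE protein of the vesicle membrane that takes part in exocytosis, rose at 72 h. Its log2 ratios were 0.10, -0.02 and -0.75 in fed gut and 0.92, 1.14 and 0.96 at 72 h, without overlap. Of the fully measured probes, 41.1% did not overlap in that contrast. The 12 h pools (-0.06, 0.05 and 0.36) and the 24 h pools (-0.14, -0.01 and -0.01) overlapped with the fed pools. The rise at 72 h was 1.23 on the log2 scale (SE 0.21, 95% interval 0.79 to 1.67, limma adjusted p = 0.002), a 2.34-fold higher level, and Vamp2 passed in each of the 25 alternatives run. Cy3 alone gave 1.24 (limma adjusted p = 0.0018) and Cy5 alone 0.02. Vamp2 was also higher at 72 h than at 24 h by 1.06 (limma adjusted p = 0.0066) and than at 12 h by 0.89 (adjusted p = 0.014). The difference from 24 h passed in all 24 alternatives, and that from 12 h in 19 of 24.

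Pcsk1n, which encodes proSAAS, an inhibitor of the prohormone convertase PC1, was higher at 12 h by 1.20 on the log2 scale (SE 0.25, limma adjusted p = 0.012) and at 24 h by 0.93 (SE 0.25, adjusted p = 0.034). Its ratios were -0.56, -0.43 and -1.05 in fed gut, and -0.06, 0.49 and 1.14 at 12 h. The 24 h pools gave 0.32, 0.17 and 0.25, and the 72 h pools 0.14, -0.20 and 0.15. No fasted pool overlapped with the fed pools, and the 72 h change of 0.71 did not pass (adjusted p = 0.089). Pools separated likewise for 28.8%, 40% and 41.1% of the fully measured probes in order of time. In Cy3 alone the change at 12 h was 0.06 (limma adjusted p = 0.92) while Cy5 was 1.15 lower on the log2 scale than on the fed arrays (-1.15, adjusted p = 0.04), and with median centring the 12 h ratio changed by 0.54 (adjusted p = 0.31). The call was lost at 12 h without fed replicate 3 (1.02, adjusted p = 0.058), and at 24 h without any 1 of the fed or 24 h arrays (0.74 to 1.05, adjusted p = 0.051 to 0.13).

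Stx1a, the plasma membrane SNARE partner of Vamp2, was higher at 12 h by 1.00 (SE 0.25, limma adjusted p = 0.025). At 24 h it was higher by 0.84 (adjusted p = 0.05, just under the threshold before rounding). At 72 h it was at the fed level, with a change of -0.02 and a 95% interval of -0.56 to 0.52. Its ratios were -0.69, -0.60 and -1.30 in fed gut, and -0.33, -0.01 and 0.75 at 12 h. The 24 h pools gave 0.07, -0.14 and -0.01, and the 72 h pools -0.66, -1.10 and -0.89. The 12 h and 24 h pools were above all fed and all 72 h pools. Of the fully measured probes, 28.8% and 40% did not overlap with fed at these times. From the 72 h pools, 30% separated at 12 h and 41.3% at 24 h. The 12 h and 24 h arrays were also 1 of the 2 array sets, so array set and time cannot be told apart here. The 72 h level was lower than that at 12 h by 1.02 on the log2 scale (-1.02, limma adjusted p = 0.02) and than that at 24 h (-0.86, adjusted p = 0.044). In Cy3 alone these differences were -0.06 (limma adjusted p = 0.9) and -0.28 (adjusted p = 0.45). The calls were lost in 8 and 15 of 24 alternatives, among them, in both contrasts, the fits without any 1 of the 72 h arrays (-1.14 to -0.92, adjusted p = 0.052 to 0.075, and -0.97 to -0.75, adjusted p = 0.088 to 0.14). The second was also lost without fed replicate 1 or 2 or 12 h replicate 2 (-0.86, adjusted p = 0.051 to 0.059) and without any 1 of the 24 h arrays (-0.92 to -0.81, adjusted p = 0.086 to 0.12). On Cy3 alone the change at 12 h was 0.47 (adjusted p = 0.19), and the 12 h ratio did not pass without fed replicate 1 (1.09, adjusted p = 0.053), fed replicate 3 (0.78, adjusted p = 0.11) or 12 h replicate 3 (0.69, adjusted p = 0.059). The 24 h ratio passed in 7 of 25 alternatives, and against the Cy5 reference directly it was -0.025.

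Ddc, aromatic L-amino acid decarboxylase, which makes serotonin in enterochromaffin cells and is also expressed by enterocytes, was lower at 24 h. Its ratios were -0.06, -0.24 and 0.37 in fed gut and -0.86, -0.59 and -0.91 at 24 h, and it fell by 0.81 on the log2 scale (SE 0.21, limma adjusted p = 0.031), or 1.75-fold. The 72 h pools, at -1.08, -0.40 and -0.46, were also below fed, with a change of -0.67 (adjusted p = 0.063). Pools did not overlap with fed for 40% of the fully measured probes at 24 h and 41.1% at 72 h. The 12 h change of -0.07 rests on 2 arrays, since the Ddc spot of 12 h replicate 1 was marked as an outlier and dropped. In Cy3 alone Ddc fell by 1.12 at 24 h (limma adjusted p = 0.0034). The call at 24 h was lost without fed replicate 1 or 3 or 24 h replicate 1 or 3 (-0.85, -0.64, -0.78 and -0.75, adjusted p = 0.079 to 0.11). Hdc, histidine decarboxylase of histamine-producing cells, had changes of -0.30, 0.09 and 0.32 that did not pass.

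Among the transcription factors, Foxa1, a forkhead factor of the endodermal epithelium, was higher at 24 h by 0.67 (SE 0.20, limma adjusted p = 0.044). The ratios were -0.24, -0.19 and -0.56 in fed gut and 0.57, 0.24 and 0.20 at 24 h, without overlap. Of the fully measured probes, 40% did not overlap in that contrast. In Cy3 alone the value was 0.19 (adjusted p = 0.52), and the call was lost without any 1 of the fed or 24 h arrays (0.55 to 0.74, adjusted p = 0.072 to 0.16) and without 72 h replicate 1 or 2 (0.67, adjusted p = 0.054 and 0.058). Its probe was well above background in Cy3 on 9 of 12 arrays. The other 6 factors were not called at any time, among them Neurod1, which drives enteroendocrine differentiation (0.01, 0.14 and 0.06), and Pax6 (-0.05, -0.25 and 0.06). The probes of Neurod1 and Pax6 were well above background in Cy3 on 7 of 12 arrays each. Among receptors and enzymes, Dpp4, the brush-border peptidase that inactivates the incretins GLP-1 and GIP, was lower at 72 h. Its ratios were -0.0011, -0.19 and 0.59 in fed gut and -0.54, -0.58 and -0.51 at 72 h, a fall of 0.68 (SE 0.19, limma adjusted p = 0.038), or 1.60-fold. In Cy3 alone the change of Dpp4 at 72 h was -0.62 (limma adjusted p = 0.069). The call of Dpp4 held in 12 of 25 alternatives. Among others it was lost with loess normalization (-0.40, adjusted p = 0.18) and without fed replicate 1 or 3, 24 h replicate 1 or 3 or any 1 of the 72 h arrays (-0.74 to -0.45, adjusted p = 0.051 to 0.15).

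**Figure D4:**
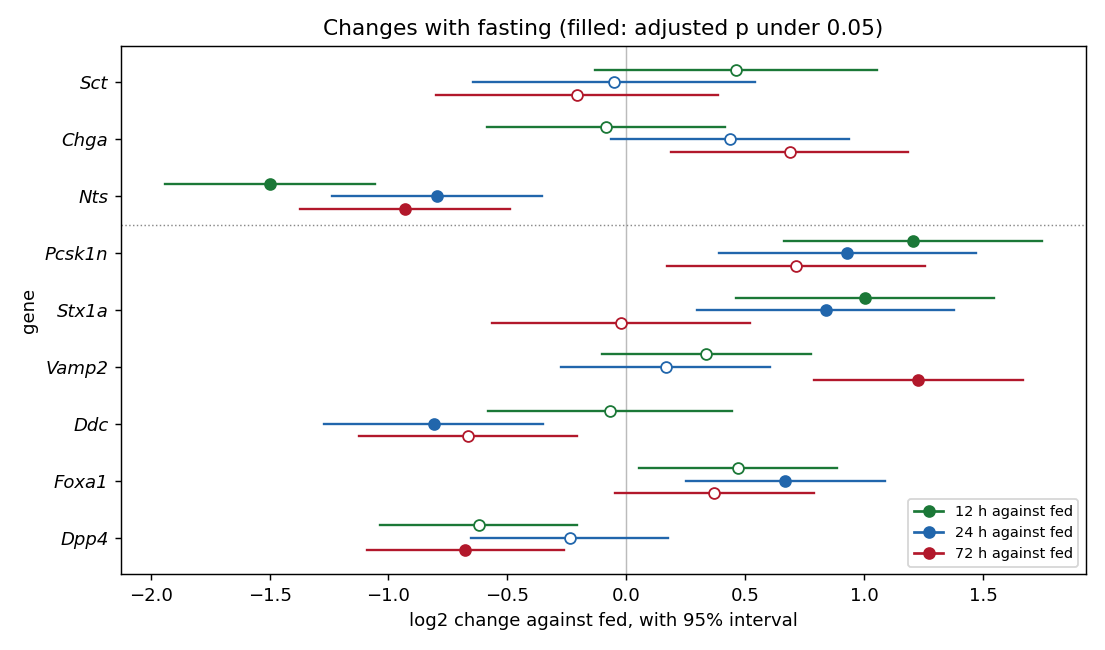
Log2 change against fed with its 95% interval (x axis) for Sct, Chga and Nts, above the dotted line, and for the 6 called genes of the pathway lists, below it, at 12 h (green), 24 h (blue) and 72 h (red); filled circles passed an adjusted p under 0.05. Nts is filled at all 3 times on the lower side, Vamp2 is filled at 72 h only, and the intervals of Sct cross 0 at every time.

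Other markers of the enteroendocrine class gave no call, but their 6 probes were already counted in the pathway lists and are not further evidence. The granule and processing list, which holds Scg2, Scg3 and Cpe, also gave the calls of Pcsk1n, Stx1a, Vamp2 and Ddc. Some of the 6 probes were dim. In Cy3, Neurod1 and Pax6 were well above background on 7 of 12 arrays each, Scg3 on 9 and Scg2 on 10. The 2 probes of Cpe were so on 11 and 12 arrays. The 6 probes of Scg2, Scg3, Cpe, Neurod1 and Pax6 had median log2 changes of 0.09, 0.29 and 0.06 in order of time, and ranged from -0.36 to 0.54. Their summed normalized Cy3 signal ranged over 621 to 797 in fed gut, then 554.5 to 1088, 763 to 792 and 761 to 860 in order of time, so that the groups overlapped. The 2 probes of Cpe, carboxypeptidase E of the granule, pointed in opposite directions at each time, at -0.36 and 0.40 at 12 h. Neurones also store chromogranins and neuropeptides, and 6 probes of enteric neurone and glia markers were not called at any time, with medians of -0.23, 0.05 and 0.05 and a summed signal of 656 to 789 in fed gut and 612 to 699 at 72 h. In Cy3 these probes were well above background on 6 (Nefl) to 12 (Gap43) arrays. Of 7 smooth muscle probes, 4 were higher and 3 not called after 12 h, and 2 were higher and 5 not called after 24 h and after 72 h. Over all probes 4.9%, 3.79% and 4.8% were called higher and 6.02%, 6.26% and 5.8% lower in order of time. The calls were Acta2, Actg2, Des and Smtn at 12 h, Des and Smtn at 24 h, and Des and Myh11 at 72 h. At 12 h the first 4 changed by 0.96, 0.70, 1.26 and 0.55 in Cy3 and by -1.42, -1.09, -0.46 and -0.88 in Cy5. Cnn1, calponin of smooth muscle, had changes of -0.08, -0.18 and 0.04, and Myl9, a myosin light chain, was at -0.91 after 72 h (limma adjusted p = 0.067). The summed signal of the 7 smooth muscle probes ranged over 6204 to 7936 in fed gut, then 7291 to 9705, 6781 to 8176 and 7516 to 8239, and their part in the changes of Nts, Chga, Pcsk1n or Stx1a was not tested. Of 6 absorptive enterocyte probes, 1 was higher and 1 lower at 12 h and 1 was lower at 72 h, and the enterocyte probes were well above background on all arrays. At 12 h the higher one, Anpep, changed by 3.43 in the ratio, 1.30 in Cy3 (limma adjusted p = 0.081) and -2.13 in Cy5. The lower one, Lct, changed by -0.98 in the ratio and -1.23 in Cy3 (limma adjusted p = 0.014). Of 6 goblet and Paneth cell probes, 1 was higher after 12 h (Mmp7, a Paneth cell protease, 2.02, limma adjusted p = 0.04). The 12 h pools of Mmp7 overlapped with the fed pools, and in Cy3 alone its change was 1.38 (limma adjusted p = 0.056). After 24 h 2 were higher (Fcgbp, 0.74, and Spdef, 0.85, adjusted p = 0.035 and 0.033), and after 72 h 1 was lower (Agr2, -1.45, adjusted p = 0.0019). Fcgbp, Spdef and Agr2 also passed in Cy3 alone at these times. Cpa1, the 1 probe for exocrine pancreas, was not called, and its normalized Cy3 signal ranged from 4349 to 29350 among the fed pools and from 4493 to 26680 among the 24 h pools. The part of these markers in the results was not tested. Markers of the distal gut or stomach had no probe, so the share of each gut segment in the pools could not be followed.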

How the data were processed

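RNA of pooled small intestines was hybridised to oligonucleotide arrays with 2 dyes, and per the labels and file headers the authors scanned and quantified them with Feature Extraction 6.1.1. The deposited files hold raw median intensity of spot and local background per channel. They also hold 0 or 1 flags (other), and a log ratio column treated as a score, since its decimal point was moved in the deposited text of large values; it served as an alternative after repair. A genome build is not given in the sources used here, so no coordinates are printed. After normexp background correction (offset 50), removal of outlier spots and quantile normalization of all 24 channels, replicate spots were merged into 20280 probes; 91 spots without a probe name and 1075 control spots were left out. Limma 3.58.1 in R 4.3.3 fitted the log2 ratio with 1 mean per group over all 12 arrays, and p-values were adjusted by Benjamini-Hochberg over all probes in each comparison, with calls at an adjusted p under 0.05. Steps were tested on simulated data. Gene symbols were updated through RefSeq gene numbers (GRCm38.p6 table). Named beyond the members were list probes called against fed, up to 5 per list, and the 3 probes most correlated with the called member. The members and lists were chosen with earlier results of these data known. Alternatives were another normalization, background correction, channel, filter, fit or call rule, and leaving out each array; the number of arrays limits the precision. Figures were drawn with matplotlib 3.10.9.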

Additional observations from a re-analysis of the deposited data

Results flagged for a closer look

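The effect of fasting on Chga differed between 72 h and 12 h by 0.77 on the log2 scale in the test of the difference itself (limma adjusted p = 0.048). The same test set 72 h apart from 24 h and 12 h for Vamp2, by 1.06 and 0.89, and for Stx1a, by -0.86 and -1.02. In Cy3 alone Stx1a had -0.28 and -0.06 in these contrasts (limma adjusted p = 0.45 and 0.9). All of these contrasts cross the 2 array sets, and array set and time cannot be told apart in them.

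The Cy5 channel, which holds fed reference RNA and is not a measurement of the groups, gave a signal for Nts that was 0.82 higher on the 12 h arrays than on the fed arrays (limma adjusted p = 0.0071). The 72 h and fed arrays differed by 0.19 in the same channel. Beyond the counts of outlier spots and the fits that left out each array in turn, the groups of 3 arrays were not searched for single outlying arrays.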

How the results depend on the processing

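The sign of the change against fed held in all 25 alternatives for Nts at 12 h (-1.89 to -0.68), 24 h (-1.02 to -0.50) and 72 h (-1.25 to -0.74) and for Chga at 72 h (0.43 to 0.92), and Nts passed in 23, 17 and 23 of them. Of the 2 probes matched by name, 0 were called against fed at each time. Counting Nts gave 1 at 12 h, 24 h, 72 h, in the F-test and in Cy5, a match chosen after seeing the data. Setting groups directly against the reference gave 1 at 24 h and 2 at 72 h, where 3111 and 5065 of all probes were called. Loess gave 1 at 72 h and 1 in the F-test, and fitting only the 2 groups gave 1 at 72 h. At 72 h these 2 settings called 3366 and 3808 of all probes. For 72 h against 12 h the 1 call became 0 with median centring, subtracted background, no background correction, the software's log ratio, Cy3 alone, only the 2 groups, or no moderation. Leaving out 1 array gave 0 to 1 calls at 72 h against fed, in the F-test and in Cy5, and 0 to 2 for 72 h against 12 h. Pathway list calls, 2 at 12 h, 4 at 24 h and 2 at 72 h, became 1, 2 and 5 with median centring, 0, 0 and 2 without moderation, 5 and 7 in Cy3 alone at 12 h and 24 h, 0 and 8 with only the 2 groups at 12 h and 72 h, and 4 and 10 against the reference at 12 h and 72 h. At 72 h they became 1 with loess, subtracted background or the software's log ratio and 4 under an unadjusted p under 0.01 with 1.4-fold. Leaving out 1 array gave 0 to 7, 0 to 5 and 1 to 6. Pcsk1n at 72 h against 12 h turned to 0.87 in Cy3 alone, and Stx1a at 24 h turned to -0.025 against the reference; the cause was not tested. Over all probes the calls against fed, 2213, 2038 and 2150, ran from 0 to 4777, from 587 to 4981 and from 852 to 5065. With only the 2 groups, 0 of all probes were called at 12 h and 3808 at 72 h, and against the reference 4777 and 5065. Median centring gave 3025, 3906 and 2825 over all probes, and no moderation 1033, 1215 and 1449. Cy3 alone gave 3038 at 12 h and 4981 at 24 h. Replicate numbers did not pair the pools (r of -0.29 to 0.13 over 18 pairs), and the replicate block left the member counts at 0 against fed and at 1 for 72 h against 12 h, and list calls at 2, 2 and 1. A block for slide or scan was not run, since the files used here give neither. Chga in Cy5 was close to background, which limits its ratios.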
